A study of Homo sapiens with 8 samples.

Results

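The genes described here are 10 coding genes of the cytoskeleton and contractile machinery that megakaryocytes use: TUBB1, MYH9, MYH10, MYL9, MYLK, KALRN, ACTB, FLNA, ACTN1 and TPM1. They were chosen by symbol, each matched 1 row of a table of 19718 coding genes, and all 10 were among the 11255 genes high enough to be tested. The table holds RNA sequencing levels for HEL92.1.7, an established erythroleukaemia line that stands for secondary acute myeloid leukaemia here, and for HEL OTX P/R, its persister-resistant derivative. OTX015, also called birabresib, occupies the bromodomains of BET proteins, the readers of acetylated histones. The 4 groups were parental cells left untreated, parental cells kept for 8 hours in 1000 nM OTX015, P/R cells left untreated, and P/R cells given the same dose for the same time, with 2 biological replicates treated independently in each. Both lines share one origin and grew in the same serum-supplemented medium. Whether the P/R line is a clone or a pool, and how it was selected, were not given in the sources used here.

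Megakaryocytes build platelets by pushing out long proplatelets, whose shafts are bundles of microtubules. Their tubulin includes a β1 isotype that is largely restricted to this lineage and to platelets. Non-muscle myosin II, an assembly of heavy chains and light chains, pulls on actin filaments and restrains or shapes this process; its activity is switched on when myosin light chain kinase phosphorylates the regulatory light chain. Filamin and α-actinin cross-link the actin filaments on which myosin acts, and tropomyosin coats them. HEL cells carry both erythroid and megakaryocytic features, and the labels call them leukaemia blasts.

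Levels are in quantile-normalized FPKM. FPKM counts fragments by transcript length and library size, which lets genes be compared per length, and the normalization then forced 1 common distribution on all libraries. Every library therefore has the same total, the sequencing depth is unknown, and a change in total RNA cannot be seen. Replicates correlated at r = 0.996 to 0.997 across genes, and libraries of different groups at 0.959 to 0.985, though genes are not independent replicates. Of 8 megakaryocyte markers, 6 reached 1 FPKM in some library, and PPBP and VWF did not. All 6 erythroid markers did, against 1 of 5 monocyte or granulocyte markers, 1 of 5 lymphocyte markers and 0 of 7 stromal or epithelial markers. The 2 replicates of a group allow no exact permutation p below 0.333, so each adjusted p below comes from limma's moderated test with Benjamini-Hochberg adjustment over all 11255 genes, at a threshold of 0.05. Changes are differences in log2(FPKM + 1) ± SE, a scale that understates the change of low genes.

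The 250 bases before a listed transcription start are shown for MYLK and KALRN, the members that differed most between the lines. They are also shown for FLNA, whose window shares a motif with that of MYLK. FLNA did not share the direction of MYLK under the drug. MYLK has only 1 listed start, and whether transcripts from it encode myosin light chain kinase was not checked. The MYLK window therefore cannot be taken as the promoter of the kinase. The sequences are RefSeq's, on build GRCh38.p14, and read 5′ to 3′ on the gene's strand. The MYLK window is chr3:123620549-123620798 on the minus strand, the KALRN window, the most upstream of 3 listed starts, is chr3:124094457-124094706 on the plus strand, and the FLNA window is chrX:154374635-154374884 on the minus strand. Capitals mark a CArG box, the element bound by serum response factor (SRF), which controls many actin and myosin genes.
MYLK: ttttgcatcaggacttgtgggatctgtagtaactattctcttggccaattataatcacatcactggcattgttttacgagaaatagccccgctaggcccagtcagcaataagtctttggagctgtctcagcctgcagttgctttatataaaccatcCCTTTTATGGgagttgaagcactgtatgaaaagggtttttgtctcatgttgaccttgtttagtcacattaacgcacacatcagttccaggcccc
KALRN: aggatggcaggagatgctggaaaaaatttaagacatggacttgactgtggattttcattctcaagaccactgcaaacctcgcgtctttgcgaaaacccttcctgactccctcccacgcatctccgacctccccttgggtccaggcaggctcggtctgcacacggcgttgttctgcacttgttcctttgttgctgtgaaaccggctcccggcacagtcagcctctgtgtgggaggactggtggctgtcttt
FLNA: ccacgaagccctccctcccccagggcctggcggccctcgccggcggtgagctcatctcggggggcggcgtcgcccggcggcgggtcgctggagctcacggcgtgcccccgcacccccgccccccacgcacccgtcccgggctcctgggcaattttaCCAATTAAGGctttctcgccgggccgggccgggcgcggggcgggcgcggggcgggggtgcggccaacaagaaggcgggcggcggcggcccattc
A CArG box stood 94 to 85 bases before the listed start in MYLK, as CCTTTTATGG, and at the same distance in FLNA, as CCAATTAAGG. Of 13 windows listed for 8 of the members, 3 held a CArG box, the other one at the third listed start of ACTN1, against 1.16% of 35116 promoter windows of this length. The GATA-type motifs AGATAA and TGATAA were in 0 and 1 of the 13 windows (9.17% and 6.66% of all), TGACTCA, an NF-E2 and AP-1 motif, in 0 (4.2%), and TGTGGT, a RUNX motif, in 1, at the third listed start of KALRN (11.0%). Both strands were searched, and windows of 1 gene are not independent. These are matches of letters in a short window, and which starts HEL cells use was not measured.

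Across all 8 libraries the members spanned a wide range of levels. ACTB averaged 3519 FPKM, the 13th highest of all genes, followed by FLNA at 325 FPKM. MYH9 (123 FPKM) and ACTN1 (119.9 FPKM) were near each other, and their order changed between groups. MYH10 averaged 42.2 FPKM, TPM1 16.5 FPKM, MYLK 12.8 FPKM, KALRN 9.45 FPKM, TUBB1 7.62 FPKM and MYL9 5.63 FPKM. In untreated parental cells the last 4 lay between 3.71 and 7.78 FPKM, and their order there was set by small differences.

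**Figure D1:**
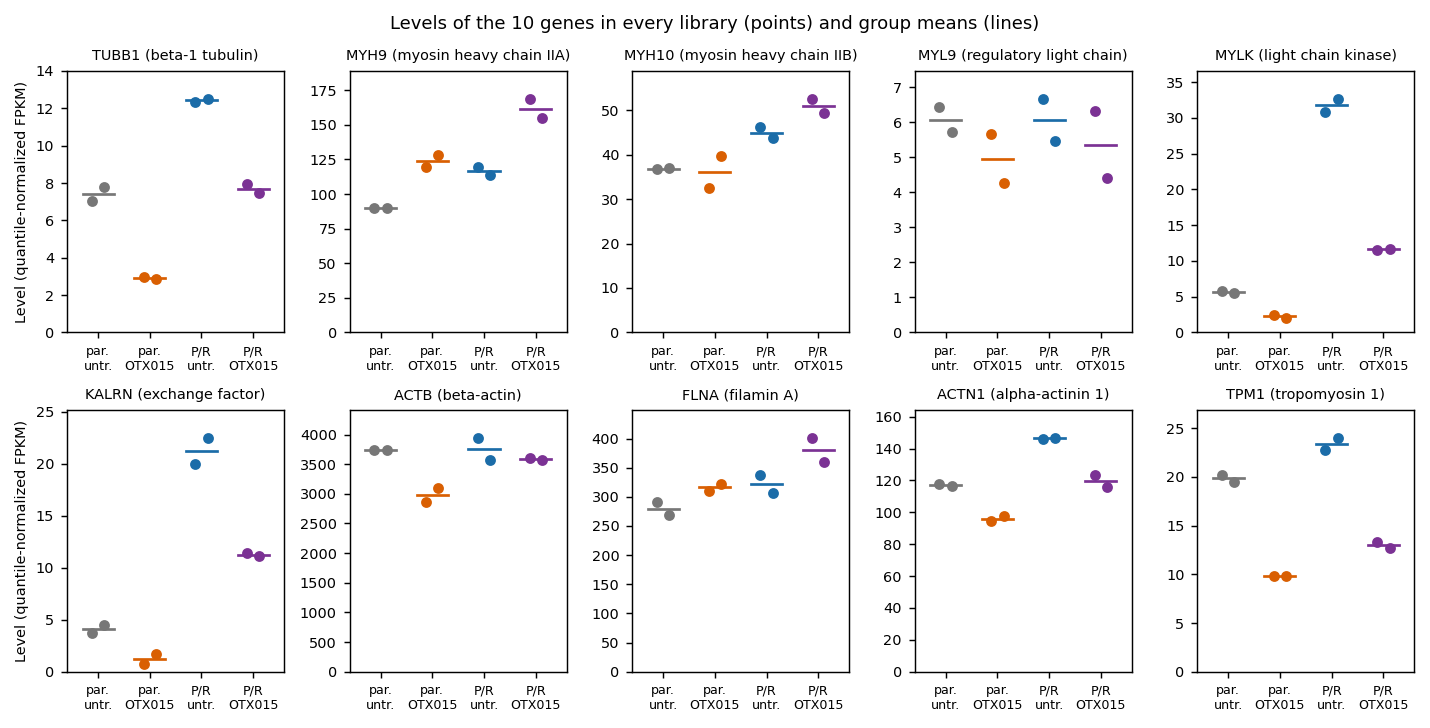
Level in quantile-normalized FPKM (vertical axes, from 0) of each gene in the 4 groups (horizontal axes); points are the 2 libraries of a group and lines their means. MYLK reaches 30.9 and 32.7 FPKM in untreated P/R cells and stays at or below 5.72 FPKM in all parental libraries, whereas all MYL9 points lie between 4.26 and 6.68 FPKM.

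The first question was what OTX015 did to these genes in each line. In parental cells TUBB1, MYLK, KALRN, TPM1, ACTN1 and ACTB fell, MYH9 rose, and MYL9, MYH10 and FLNA did not pass. In P/R cells TUBB1, MYLK, KALRN, TPM1 and ACTN1 fell and MYH9 and FLNA rose, while MYL9, MYH10 and ACTB did not pass. The counts were 6 lower and 1 higher of 10 in parental cells, where 24.7% of all tested genes were lower and 25.7% higher (50.4% in either direction). They were 5 lower and 2 higher in P/R cells, where 21.8% were lower and 22.5% higher (44.3% in either direction). The median change of the 10 was -0.31 in parental and -0.23 in P/R cells, beside 0.02 and 0.01 over all genes.

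**Figure D2:**
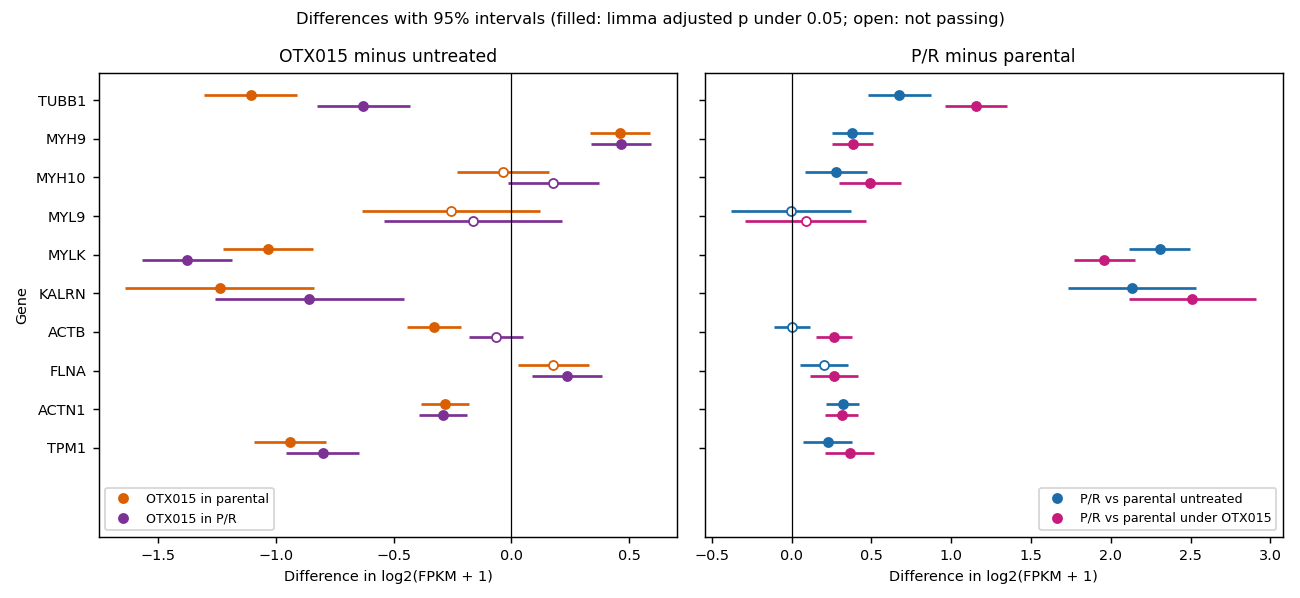
Difference in log2(FPKM + 1) (horizontal axes) for each gene, OTX015 minus untreated on the left and P/R minus parental on the right; bars are 95% intervals from limma and filled points passed at an adjusted p under 0.05. TUBB1, MYLK, KALRN and TPM1 lie left of 0 under OTX015 in both lines, and MYLK and KALRN lie farthest right in the comparison of lines.

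TUBB1 encodes β1 tubulin, the isotype of proplatelet and platelet microtubules. Its levels were 7.06 and 7.78 FPKM in untreated parental cells and 2.97 and 2.84 FPKM under OTX015. P/R cells had 12.4 and 12.5 FPKM untreated and 7.93 and 7.47 FPKM treated. Treated P/R cells thus stood where untreated parental cells did, and both treated groups lay wholly below their own controls. The log2 change was -1.11 ± 0.09 in parental cells (adjusted p = 1.3e-05) and -0.63 ± 0.09 in P/R cells (adjusted p = 0.000433), a fall to 0.392 and 0.619 of the untreated mean. With a pseudocount of 5 in place of 1 the parental change was -0.65. The smaller fall in P/R cells did not pass as a difference in response (0.48, 95% interval 0.20 to 0.76, adjusted p = 0.262).

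Most other tubulins moved the opposite way from TUBB1. Of 13 other tubulin genes tested, 9 rose and 4 fell in parental cells, and 8 rose, 3 fell and 2 did not pass in P/R cells. Over all tested genes 25.7% were higher and 24.7% lower in parental cells, and 22.5% and 21.8% in P/R cells. TUBB3, an isotype best known from neurons, stood at 3.93 ± 0.092 FPKM in untreated and 19.2 ± 0.283 FPKM in treated parental cells (mean ± SD, n = 2). The P/R means were 3.73 ± 0.2 FPKM untreated and 15.6 ± 0.059 FPKM treated. TUBB4B, a broadly expressed β tubulin, went from 389 ± 6.82 to 802 ± 22.8 FPKM and from 372 ± 11.9 to 739 ± 42 FPKM. TUBB2A and TUBB2B rose by 1.02 and 0.94 in parental cells and by 0.85 and 0.80 in P/R cells on the log2 scale. TUBB2A and TUBB2B have near-identical coding sequences, so their reads may have been divided between them. In the untreated comparison of lines TUBB1 was higher in P/R cells, whereas of the 13 others 6 were lower, 2 higher and 5 did not pass. Over all tested genes 11.9% were lower and 11.7% higher. The 2 higher ones, TUBA4A (0.31) and TUBB4A (0.42), were named after their values were seen. Like TUBB1 they fell under OTX015, TUBA4A at -0.30 in parental and -0.16 in P/R cells and TUBB4A at -0.38 and -0.23.

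**Figure D3:**
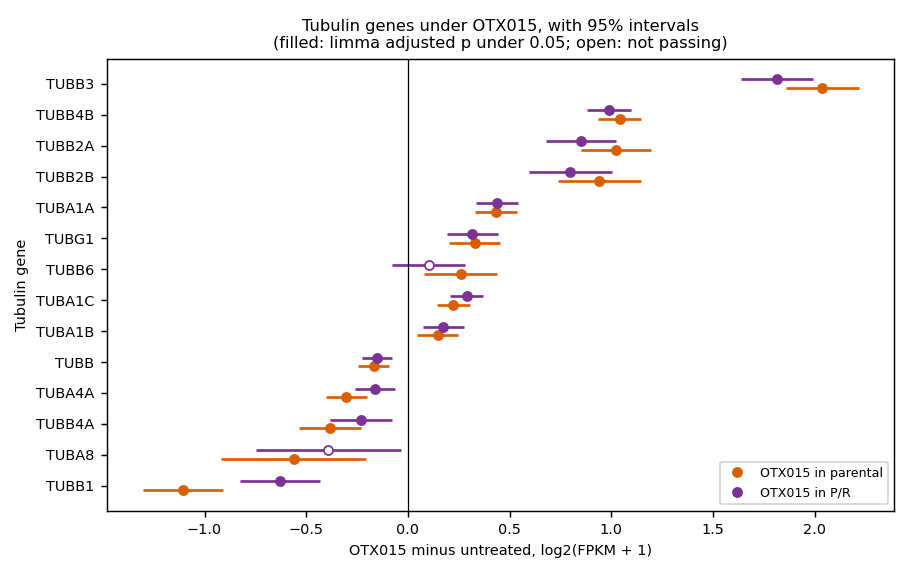
Change in log2(FPKM + 1) under OTX015 (horizontal axis) for TUBB1 and 13 other tubulin genes (vertical axis), with 95% intervals; filled points passed limma's test at an adjusted p under 0.05. TUBB3 lies at 2.04 in parental and 1.82 in P/R cells, at the other end from TUBB1 at -1.11 and -0.63.

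MYH9 encodes the heavy chain of non-muscle myosin IIA, the main myosin II of platelets. It read 89.6 and 89.7 FPKM in untreated parental cells and 119.5 and 128 FPKM under OTX015. P/R cells had 119.8 and 114 FPKM untreated and 169 and 155 FPKM treated. The rises were 0.46 ± 0.06 in both lines (adjusted p = 0.000169 in parental and 0.000218 in P/R cells), and the difference between them was 0.00 (95% interval -0.18 to 0.18). Treated parental cells and untreated P/R cells had overlapping ranges only at their edges, 119.5 against 119.8 FPKM.

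MYH10 encodes the heavy chain of myosin IIB, the form that maturing megakaryocytes switch off. Its levels were 36.8 and 36.9 FPKM in untreated and 32.5 and 39.7 FPKM in treated parental cells, so the groups overlapped. P/R cells had 46.2 and 43.7 FPKM untreated and 52.6 and 49.3 FPKM treated. Neither change passed (adjusted p = 0.744 and 0.124), and the 95% intervals ran from -0.23 to 0.16 and from -0.02 to 0.37. The P/R change passed when either parental OTX015 library was left out, with adjusted p down to 0.0416. Without parental OTX015 replicate 1 the parental value turned to 0.10. The amount of MYH10 per MYH9 was 0.411 and 0.412 in untreated parental cells and 0.386 and 0.383 in untreated P/R cells. Under OTX015 it was 0.272 and 0.309 in parental and 0.312 and 0.319 in P/R cells, below every untreated library, a ratio to which the rise of MYH9 contributed by construction.

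MYL9 encodes a regulatory light chain of myosin II, the substrate of the kinase below. It had the lowest mean of the members, with 6.44 and 5.72 FPKM in untreated and 5.67 and 4.26 FPKM in treated parental cells, ranges that nearly touched. In P/R cells it stood at 6.68 and 5.48 FPKM untreated and 6.33 and 4.41 FPKM treated, ranges that overlapped. It passed in no comparison, and its change under OTX015 was -0.26 (95% interval -0.63 to 0.12) in parental and -0.16 (-0.54 to 0.21) in P/R cells. Intervals of this width do not show that MYL9 stayed level.

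MYLK encodes myosin light chain kinase, which switches myosin II on. Parental cells had 5.72 and 5.53 FPKM untreated and 2.41 and 2.08 FPKM under OTX015. In P/R cells the levels were 30.9 and 32.7 FPKM untreated and 11.5 and 11.7 FPKM treated. The treated level in P/R cells was above the untreated level in parental cells in every library. The changes were -1.03 ± 0.09 (adjusted p = 1.72e-05) and -1.38 ± 0.09 (adjusted p = 5.58e-06), to 0.398 and 0.365 of the untreated mean. With a pseudocount of 5 the parental change was -0.55. On this scale the fall in P/R cells was the 64th largest of 11255 genes. The difference in response was -0.35 and did not pass (adjusted p = 0.392); with a pseudocount of 5 it was -0.59 and passed (adjusted p = 0.0265). MYLK may share reads with a pseudogene.

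KALRN encodes kalirin, a guanine nucleotide exchange factor that acts on the actin cytoskeleton. Its levels were 3.71 and 4.46 FPKM in untreated parental cells and 0.731 and 1.67 FPKM under OTX015. In P/R cells they fell from 20.02 and 22.5 FPKM to 11.4 and 11.1 FPKM. The log2 changes were -1.24 ± 0.18 (adjusted p = 0.00041) and -0.86 ± 0.18 (adjusted p = 0.00393), and with a pseudocount of 5 the parental change was -0.55. The difference between them, 0.38, did not pass (adjusted p = 0.682) and turned to -0.14 with a pseudocount of 5, so no order of the responses can be read from it.

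Other genes of myosin control were mixed. Among all tested genes 25.7% rose and 24.7% fell in parental cells, and 22.5% rose and 21.8% fell in P/R cells. Of 13 tested myosin chains and regulators, 5 rose, 1 fell and 7 did not pass in parental cells, and 6 rose, 1 fell and 6 did not pass in P/R cells. The one that fell in each line was MYLK3, a kinase best known from heart muscle, with 3.84 ± 0.096 FPKM untreated and 1.21 ± 0.217 FPKM treated in parental cells. Its P/R means were 13.6 ± 0.279 and 4.25 ± 0.404 FPKM. DAPK3, another light chain kinase, rose by 0.83 and 0.85 on the log2 scale.

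ACTB encodes β-actin, often used as a reference transcript. It read 3745 FPKM in both untreated parental libraries and 2869.6 and 3104 FPKM under OTX015. In P/R cells it read 3942 and 3569 FPKM untreated and 3604 and 3569 FPKM treated. The change was -0.33 ± 0.05 in parental cells (adjusted p = 0.000675) and -0.06 (95% interval -0.18 to 0.05, adjusted p = 0.336) in P/R cells, and the difference of 0.26 did not pass (adjusted p = 0.295). The identical values mark equal ranks, to which quantile normalization gives 1 value, so their SD of 0 does not measure the spread. In untreated P/R cells the SD was 263 FPKM, and whether the spread of ACTB is understated as a whole is not known. Its reads may also be shared with ACTG1 and with actin pseudogenes.

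FLNA encodes filamin A, which cross-links actin and anchors the platelet receptor GPIb. Its levels were 291 and 268 FPKM in untreated and 311 and 322 FPKM in treated parental cells, and 338 and 307 FPKM in untreated and 401 and 359 FPKM in treated P/R cells. The groups of each line did not overlap, but the change of 0.18 ± 0.07 in parental cells missed the threshold (adjusted p = 0.0509) and the rise of 0.24 ± 0.07 in P/R cells passed (adjusted p = 0.0179). The P/R call was lost without P/R untreated replicate 2 or P/R OTX015 replicate 1 (a change of 0.16), with adjusted p up to 0.135 over all alternatives. The parental change passed without parental untreated replicate 1, without either untreated P/R library and without either treated P/R library, with adjusted p down to 0.0244 over all alternatives.

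ACTN1 encodes α-actinin 1, which bundles actin filaments. Parental cells went from 118 and 117 FPKM to 94.6 and 97.7 FPKM, and P/R cells from 146 and 147 FPKM to 123 and 116 FPKM. The changes were -0.28 ± 0.05 and -0.29 ± 0.05 (adjusted p = 0.000771 and 0.000879), and their difference was -0.01 (95% interval -0.15 to 0.14). TPM1 encodes a tropomyosin that stabilizes filaments and has many splice forms, which a gene-level value does not separate. Its levels were 20.2 and 19.5 FPKM in untreated and 9.86 and 9.87 FPKM in treated parental cells, and 22.8 and 24 FPKM in untreated and 13.3 and 12.7 FPKM in treated P/R cells. These are changes of -0.94 ± 0.07 (adjusted p = 8.74e-06) and -0.80 ± 0.07 (adjusted p = 3.08e-05). The amount of FLNA per ACTN1 was 2.09 to 2.48 in the 4 untreated libraries and 3.09 to 3.29 in the 4 treated ones.

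Related actin genes moved in both directions, at shares to be read beside the general ones under OTX015, 25.7% higher and 24.7% lower in parental and 22.5% and 21.8% in P/R cells. Of 13 tested crosslinkers and tropomyosins, 4 rose and 5 fell in parental cells, and 3 rose and 5 fell in P/R cells. TPM4, another tropomyosin of platelets, had means of 129 ± 1.24 and 86.4 ± 1.2 FPKM in untreated and treated parental cells and 159 ± 1.8 and 114 ± 0.522 FPKM in P/R cells, and fell in both lines. CNN2, a calponin, changed by -0.71 in both lines. Among 22 genes of actin and filament turnover, 4 rose and 7 fell in parental cells and 2 rose and 7 fell in P/R cells, with WIPF1, a partner of the Wiskott-Aldrich protein, at -0.70 and -0.64. Of 12 focal adhesion genes, 4 rose and 4 fell in parental and 4 rose and 5 fell in P/R cells; TGFB1I1 (HIC-5), FHL2 and ZYX (zyxin) fell in both, TGFB1I1 by 1.26 and 0.94. Of 12 regulators, SRF, its MRTF cofactors (MKL1, MKL2) and megakaryocyte factors, 3 rose and 2 fell in parental cells, and 1 rose and 4 fell in P/R cells. ETV6 fell in both lines, by 0.79 and 0.64. SRF itself was at 36 ± 0.376 and 34.1 ± 1.08 FPKM in parental cells, a change that did not pass, and fell from 38.9 ± 0.412 to 32.8 ± 1.74 FPKM in P/R cells.

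The second question was how the resistant line differed from its parent. Without drug, 7 of the 10 genes were higher in P/R cells and 0 lower, where 11.7% of all tested genes were higher and 11.9% lower. Under OTX015 9 were higher and 0 lower, where 12.7% were higher and 11.7% lower. The median difference of the 10 was 0.30 without and 0.37 with the drug, beside -0.01 over all genes in both. The 2 comparisons hold separate libraries, but of the same parental and P/R lines and with a shared estimate of the spread. Their p-values therefore do not measure variation between resistant lines. MYL9 was the only member that passed in neither comparison.

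MYLK and KALRN stood far apart from the other 8 members. Untreated, MYLK was 5.65-fold and KALRN 5.2-fold higher in P/R than in parental cells by mean FPKM, with log2 differences of 2.31 ± 0.09 (adjusted p = 5.94e-07) and 2.13 ± 0.18 (adjusted p = 4.25e-05). Of 11255 genes, 14 differed by 2 or more in this direction, and MYLK and KALRN held places 8 and 11. Under OTX015 the differences were 1.96 ± 0.09 and 2.51 ± 0.18 (adjusted p = 9.06e-07 and 1.37e-05), places 14 and 3. TUBB1 was 1.68-fold higher untreated (log2 difference 0.68 ± 0.09, adjusted p = 0.000529) and 2.65-fold higher under the drug (1.15 ± 0.09, adjusted p = 1.98e-05). Sizes and places depend on the pseudocount: with 5 the differences under OTX015 were 1.20 for MYLK, 1.39 for KALRN and 0.68 for TUBB1, and with 0.1 they were 2.32, 3.23 and 1.37, and each passed.

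The remaining differences were small. MYH9 was higher by 0.38 ± 0.06 both without and with OTX015 (adjusted p = 0.00124 and 0.00112), and ACTN1 by 0.32 ± 0.05 and 0.31 ± 0.05 (adjusted p = 0.000929 and 0.000928). TPM1 was higher by 0.23 ± 0.07 untreated (adjusted p = 0.041) and by 0.36 ± 0.07 under the drug (adjusted p = 0.0042). MYH10 was higher by 0.28 ± 0.09 (adjusted p = 0.0452) and 0.49 ± 0.09 (adjusted p = 0.00282). The untreated calls of TPM1 and MYH10 were lost when any 1 of the 4 untreated libraries was left out, that of TPM1 also without either parental OTX015 library and that of MYH10 without either P/R OTX015 library, with adjusted p up to 0.222 and 0.207. FLNA missed the threshold untreated (0.20, adjusted p = 0.0547) and passed under OTX015 (0.26 ± 0.07, adjusted p = 0.0192). Its untreated difference passed without P/R untreated replicate 2 or either P/R OTX015 library, and its call under OTX015 was lost without either parental OTX015 library or P/R OTX015 replicate 1. ACTB did not pass untreated (0.00, 95% interval -0.11 to 0.12) and was higher in P/R cells under OTX015 (0.27 ± 0.05, adjusted p = 0.00482), where it had fallen in parental cells.

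MYLK and KALRN are near neighbours on chromosome 3, with CCDC14 and ROPN1 the only coding genes of the table between them in the order of a GENCODE annotation. CCDC14 did not pass, at 16.5 and 15 FPKM in untreated parental and 16.4 and 18.4 FPKM in untreated P/R cells, and ROPN1 was too low to be tested. The 8 genes on either side and those between included 12 tested genes. Of these, 1 was higher in untreated P/R cells and 0 lower, beside 11.7% and 11.9% of all tested genes. That gene, ITGB5, an integrin β chain that lies second after KALRN, was named after its values were seen. It read 20.3 and 16.8 FPKM in untreated parental and 66.5 and 58.6 FPKM in untreated P/R cells, a log2 difference of 1.70 (adjusted p = 6.55e-06), and UMPS, between KALRN and ITGB5, did not pass (0.15, adjusted p = 0.2). Under OTX015, ITGB5 fell by 0.53 in parental and 0.28 in P/R cells (adjusted p = 0.00236 and 0.0494). Between the treated lines ITGB5 was again higher and 1 of the 12, DIRC2, was lower (-0.39, adjusted p = 0.0287). The 40 tested genes nearest MYLK had a median line difference of -0.02 untreated and -0.06 under OTX015. Those nearest KALRN had -0.05 and -0.09. A median over 40 genes cannot show a difference confined to a few adjacent genes, and a cause shared by MYLK, KALRN and ITGB5 was not tested.

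**Figure D4:**
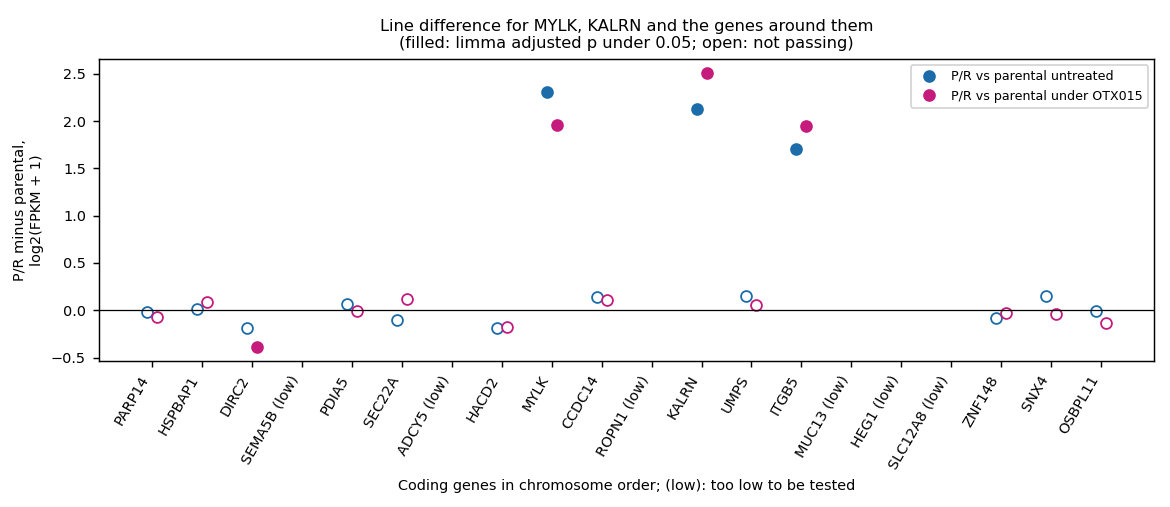
Difference between P/R and parental cells in log2(FPKM + 1) (vertical axis), untreated and under OTX015, for MYLK, KALRN, the coding genes between them and 8 on either side in chromosome order (horizontal axis); filled points passed at an adjusted p under 0.05. MYLK, KALRN and ITGB5 lie at 1.70 to 2.51, and the tested genes between them lie near 0.

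For MYH10 the median of the surrounding genes was not near 0. The 40 tested genes nearest to it on chromosome 17 had a median line difference of 0.54 untreated and 0.56 under OTX015, both above the values of MYH10 itself (0.28 and 0.49). For the other 7 members the median of the nearest genes lay between -0.07 and 0.04 in both comparisons. The part of this shared difference in the MYH10 calls was not tested.

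Megakaryocyte markers moved with the members between the lines. Of the 6 tested, 5 were higher, among them GP1BA, ITGB3 and PF4, and 1, ITGA2B, was lower in untreated P/R cells, and the 8 markers summed to 599 to 627 FPKM in untreated parental and 826 to 835 FPKM in untreated P/R cells. PF4 was at 2.33 ± 0.471 and 48.9 ± 2.15 FPKM. Under OTX015 the sums were 516 to 532 FPKM in parental and 676 to 751 FPKM in P/R cells. Of the 6 erythroid markers 3 were lower and 0 higher in untreated P/R cells, with sums of 12529 to 12567 and 11622 to 11839 FPKM. The part of these shifts in the member differences was not tested, and in bulk RNA more cells of a kind and more RNA per cell cannot be told apart.

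Of 8 related genes named above that fell under OTX015 in both lines, 4 were higher in untreated P/R cells and 4 did not pass. MYLK3 was higher by 1.59, TGFB1I1 by 0.85, ZYX by 0.50 and TPM4 by 0.31 on the log2 scale. Those that did not pass were ETV6 at 0.18, FHL2 at 0.01, WIPF1 at -0.02 and CNN2 at -0.15. By list, 6 of 12 focal adhesion genes, 7 of 22 actin and turnover genes and 5 of 12 regulators were higher in untreated P/R cells, with 0, 2 and 0 lower. Of the 13 crosslinkers and tropomyosins 2 were higher and 1 lower, and of the 13 myosin chains and regulators 3 and 0. Beside these stand 11.7% of all genes higher and 11.9% lower, and no list was tested as a set. The comparisons of drug and of line share the untreated libraries.

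The third question was whether the lines responded differently. None of the 10 members passed in limma's test of the difference in response, in which 0.08% of all tested genes passed (0.0622% higher and 0.0178% lower), and 3 (TUBB1, MYLK and ACTB) had an unadjusted p under 0.05. With a pseudocount of 5, MYLK passed, as given above. Intervals were narrow for ACTN1 and MYH9 and wide for KALRN (-0.19 to 0.95) and MYL9 (-0.44 to 0.63), so differences of some size in the latter pair were not detectable here.

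The 3 genes most like a member over the 8 libraries, among tested genes averaging at least 5 FPKM, were found by Pearson's r of log2(FPKM + 1). They describe these libraries only, since 4 groups of 2 give few independent points. For TUBB1 they were RHD (r = 0.998), ARRB1 (0.994) and CTSZ (0.994), and for MYLK they were VEGFA (0.993), THBS1 (0.993) and XPNPEP1 (0.993). For ACTN1 they were PKLR (0.997), MYLK3 (0.995) and PIM2 (0.995), and for TPM1 they were DBNDD2, SULT1A3 and MYADM (all 0.998). SULT1A3 has a near-identical copy, so its value is uncertain. Among the members themselves MYLK, KALRN, TUBB1 and ACTN1 correlated with each other at 0.93 to 0.97, and MYH9 with FLNA at 0.95, while MYH9 and TPM1 stood at -0.52.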

How the data were processed

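Total RNA of 8 cultures was sequenced, 2 in each of 4 groups. The authors deposited 1 table of 19718 coding genes, whose values are taken to be FPKM, since the header names no unit and the values are neither whole nor negative. TopHat2 2.0, Cufflinks 2.0 and build hg19 are named per the submitters' processing notes, while roles, settings, annotation and strand were not given in the sources used here. Without strand, reads of a gene and of an overlapping antisense gene cannot be told apart. The deposited FPKM values are quantile normalized: above a mean of 1 FPKM the sorted values of the libraries differ by at most 0.136%. No 2 replicates were near identical (at most 0.8% of genes had equal values).

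Genes with at least 1 FPKM in at least 2 libraries (11255) were fitted as log2(FPKM + 1) in limma 3.58.1 (R 4.3.3), with 4 group means and a variance trend, on all 8 libraries. The 5 contrasts were OTX015 in each line, P/R against parental without and with drug, and the difference in response. All tests are two-sided, and the fit was tested on simulated data. The members, the related lists and the markers were chosen with earlier results of these data known. All members are named, and up to 4 passing genes a list with the largest change under OTX015 in each line, except some items that are not reported here. Gene order came from GENCODE (GRCh38) by Ensembl identifier, and no hg19 coordinates were used; the 40 nearest genes are the 20 tested on either side. The alternatives tried were a pseudocount of 0.1 or 5, a filter on the mean (5 FPKM) or none, median centring, a fit without the variance trend, only the groups compared, a replicate block and leaving out each library. When 1 library is left out, its partner is assumed to vary like the other groups.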

Additional observations from a re-analysis of the deposited data

How the results depend on the processing

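Of 50 pairs of a member and a comparison, 31 kept their direction and their side of the threshold in all alternatives, and 26 of the 30 calls did so. The other 4 calls were those of FLNA in P/R cells under OTX015, of FLNA between the treated lines, and of MYH10 and TPM1 between the untreated lines. Besides the left-out libraries named above, both FLNA calls and that of MYH10 were lost without the filter or without the variance trend, that of TPM1 in a fit of only the groups compared, and those of MYH10 and TPM1 with the replicate block. FLNA, which had missed the threshold, passed under OTX015 in parental cells and between untreated lines with the replicate block and with the filter on the mean, and in the former also in a fit of only the groups compared. With 1 library left out, 7 to 8 members passed for OTX015 in parental cells, 6 to 8 in P/R cells, 5 to 7 between untreated lines, 8 to 9 between treated lines and 0 for the difference in response. Over all genes the counts were 4344 to 5738, 3623 to 5012, 1594 to 2684, 1758 to 2624 and 0 to 8, against 5667, 4981, 2647, 2747 and 9 with all libraries. For the difference in response, 4 genes passed with a pseudocount of 0.1, 29 with a pseudocount of 5 (1 of them a member, MYLK), 4 without the filter, 3 without the variance trend and 2 with the replicate block. The cause was not tested.

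The directions that turned belonged to values that had not passed. With a pseudocount of 5 the difference in response of KALRN was -0.14. Leaving out 1 library gave -0.38 to 0.0551 for MYL9 under OTX015 in P/R cells, -0.13 to 0.12 between untreated lines, -0.13 to 0.31 between treated lines and -0.13 to 0.31 for its difference in response. The same gave -0.18 to 0.10 for MYH10 under OTX015 in parental cells, -0.14 to 0.00703 for ACTB under OTX015 in P/R cells and -0.0693 to 0.0738 for ACTB between untreated lines. For the difference in response it gave -0.0604 to 0.0659 for MYH9, -0.0208 to 0.14 for FLNA and -0.0472 to 0.0365 for ACTN1.

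Replicate numbers are shared between groups, but the deviations of same-numbered libraries correlated only at -0.12 to 0.104 over pairs of groups. No shared deviation was thus seen, though this cannot exclude that same-numbered cultures were handled together. With the replicate block 8, 7, 6, 9 and 0 members passed in the 5 comparisons. The block crossed between the treated lines, added after the data were seen, left 9 members passing. Depth is unknown, so counting error cannot be given for the low members TUBB1, MYL9, MYLK and KALRN.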
